A study of Mus musculus with 8 samples.

Results

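The genes described here are 49 homeobox genes outside the Hox clusters that lay out the body plan of the embryo: 13 Nkx genes, 6 Lhx genes, 6 Irx genes, 6 Dlx genes, Six2, Six3 and Six6, Emx1, and a pair each of Msx, Otx, Pitx, Alx, En, Isl and Gbx genes. They were chosen by gene name, as rows of every deposited file, and the rule used no measured value, though the list was drawn up with earlier results of these data known. All 49 were among the 21352 genes of the files, and all lay on autosomes, which held 20368 genes. The study measured H3K27me3, the histone mark of Polycomb repression, by low-input CUT&RUN in mouse primordial germ cells (PGCs), which later give rise to the gametes. The method brings a nuclease to the mark through an antibody and sequences the fragments released.

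All animals were hybrids with the strain label B6 x Cast and carried the reporter genotype Oct4-eGFP+/-. The females were Xist KO/+ and the males Xist KO/Y, so every library, controls included, came from animals with an Xist mutation. PGCs were sorted from embryos pooled by sex. Of the 8 samples in the labels, 5 had a file: 2 H3K27me3 libraries of female cells (E11.5, E12.5) and 3 libraries of IgG, the control for untargeted cutting, of which that of E11.5 was male and those of E12.5 and E13.5 female. Each group was thus 1 library of pooled embryos, and the other 3 samples, labelled as a second replicate of H3K27me3 (in 2 parts for E11.5), were not analysed here. The files thus give no replicate spread, differences have no replicate check, and intervals cover counting error only.

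Homeobox genes encode transcription factors that bind DNA through a homeodomain. In somatic tissues they are switched on in restricted territories: Nkx genes in the ventral neural tube, the heart and endoderm, Lhx and Isl genes in the brain, limb and motor neurons, Dlx and Msx genes in the face and limbs, Otx, Emx, En and Gbx genes along the brain axis. Polycomb repressive complex 2 places H3K27me3 on the CpG-rich regions of such genes where they are silent, and homeobox genes are among its best-known targets in pluripotent and germ cells.

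To show what these starting regions look like, the promoter stretches of the 2 members with the highest and the 2 with the lowest H3K27me3 over IgG at E12.5 are printed, among those with an entry in the RefSeq promoter table (GRCm38.p6, 250 bases before to 50 after the gene start, 5′ to 3′ on the gene's strand). Capitals mark each CpG. The high pair is Nkx6-2 (chr7:139582748-139583047, minus strand), a regulator of ventral neural tube and oligodendrocyte identity, with 32 CpGs, and Nkx2-9 (chr12:56613235-56613534, minus strand), a ventral neural tube gene, with 15. At the other end are Gbx2 (chr1:89931127-89931426, minus strand), which sets the boundary between midbrain and hindbrain, with 27 CpGs, and Isl2 (chr9:55540899-55541198, plus strand, inside the annotated span of the gene), a motor neuron gene, with 23.
Nkx6-2: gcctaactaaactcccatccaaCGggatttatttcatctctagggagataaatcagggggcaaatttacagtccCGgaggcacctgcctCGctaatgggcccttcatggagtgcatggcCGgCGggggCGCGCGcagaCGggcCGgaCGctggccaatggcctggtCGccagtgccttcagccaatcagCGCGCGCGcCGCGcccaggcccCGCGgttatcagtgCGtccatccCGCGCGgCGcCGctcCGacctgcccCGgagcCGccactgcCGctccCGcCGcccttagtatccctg
Nkx2-9: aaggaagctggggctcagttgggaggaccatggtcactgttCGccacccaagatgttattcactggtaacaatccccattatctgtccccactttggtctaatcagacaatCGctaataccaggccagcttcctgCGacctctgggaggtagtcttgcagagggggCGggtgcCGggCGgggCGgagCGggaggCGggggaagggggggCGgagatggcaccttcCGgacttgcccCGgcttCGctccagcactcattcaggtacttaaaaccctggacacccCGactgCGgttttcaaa
Gbx2: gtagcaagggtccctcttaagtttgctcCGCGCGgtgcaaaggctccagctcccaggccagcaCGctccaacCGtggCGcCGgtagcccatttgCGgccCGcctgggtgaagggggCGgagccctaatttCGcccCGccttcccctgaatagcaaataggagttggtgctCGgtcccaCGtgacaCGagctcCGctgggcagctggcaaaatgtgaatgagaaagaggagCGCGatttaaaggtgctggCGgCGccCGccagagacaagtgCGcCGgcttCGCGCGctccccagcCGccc
Isl2: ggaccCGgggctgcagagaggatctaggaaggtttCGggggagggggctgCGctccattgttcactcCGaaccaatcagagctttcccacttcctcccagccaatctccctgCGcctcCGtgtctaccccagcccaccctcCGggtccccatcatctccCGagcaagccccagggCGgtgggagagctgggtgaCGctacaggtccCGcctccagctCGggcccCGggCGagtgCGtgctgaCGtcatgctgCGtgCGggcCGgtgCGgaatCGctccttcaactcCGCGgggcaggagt
The place of Nkx6-2 rests on a control with 0 reads, since it had 37 reads in H3K27me3 and none in IgG at E12.5. Its log2 ratio of 3.07 there was 1.31 with a pseudocount of 5, and over IgG E13.5 it was 1.80, rank 38 of 47 members. Nkx2-9, whose ratio over IgG E13.5 was 3.63, had the fewest CpGs of these 4 promoters. Across 43 members, log2 ratios over IgG of the same stage had a Spearman correlation of 0.15 between E11.5 and E12.5. Ranks over IgG of the same stage thus describe these libraries and repeated little between stages. Each stage had its own control there, so differences between controls also enter this correlation. Over IgG E13.5, Dlx5 had the highest ratio of the 47 members in both H3K27me3 libraries (4.12, then 3.79). Lhx1, Isl2, Gbx2 and Msx2 had the lowest ratios in both. A shared control can itself make ranks alike, and the correlation over IgG E13.5 was not computed.

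Per file, reads were counted per gene on a first and a second allele. The libraries held 2356356 and 5020062 autosomal reads in H3K27me3 at E11.5 and E12.5, and 1357583, 1515532 and 5705401 in IgG at E11.5, E12.5 and E13.5. A gene's level is given as RPM, its reads on both alleles scaled to 1000000 autosomal reads of the library. Only reads over a difference between the strains are counted, so levels of different genes also depend on how many such differences each holds. Plain folds over IgG of the same gene do not share this limit. The log2 ratios share it in part, since the pseudocount added to both levels pulls genes with few reads toward 0. A minimum of reads also depends on it. Summed, the 49 genes took 0.351% and 0.271% of autosomal reads in H3K27me3 at E11.5 and E12.5, and 0.0453%, 0.0579% and 0.0392% in the IgG libraries.

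Nearly all of these genes carried several times more reads in H3K27me3 than in IgG at both stages. Log2 ratios were taken with a pseudocount of 1 RPM, over members that held 20 or more reads across both libraries compared, and a member was called at 2-fold or more. At E11.5, 43 of the 44 such members were called higher than IgG of the same stage, with a median log2 ratio of 2.91, against 17.2% of 15050 autosomal genes and a median of -0.49 over them. At E12.5 it was 41 of 46, with a median of 2.27, against 15.2% of autosomal genes and a median of -0.54. The minimum of 20 reads can favour genes with many H3K27me3 reads. With no minimum, 44 and 42 of all 49 were called, against 14.6% and 13.3% of autosomal genes. With a filter on IgG E13.5 alone (at least 10 reads), which uses neither library compared, it was 41 and 40 of 45, against 15.2% and 14.1%. The exact 95% interval of the fold lay above 1 for 43 members at E11.5 and 41 at E12.5, where 23.3% and 23% of autosomal genes did so. The control at E11.5 was male and the H3K27me3 library female, and sex and antibody cannot be told apart there.

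The IgG library of E13.5 was the deepest control. Over it, 43 of 47 members were called at E11.5 and 43 at E12.5, against 16.8% and 15.9% of autosomal genes, and the medians were 3.25 and 2.73, against -0.44 and -0.41. The autosomal medians lie below 0 on this scale, so a ratio of 0 is not the level of an unmarked gene.

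**Figure D1:**
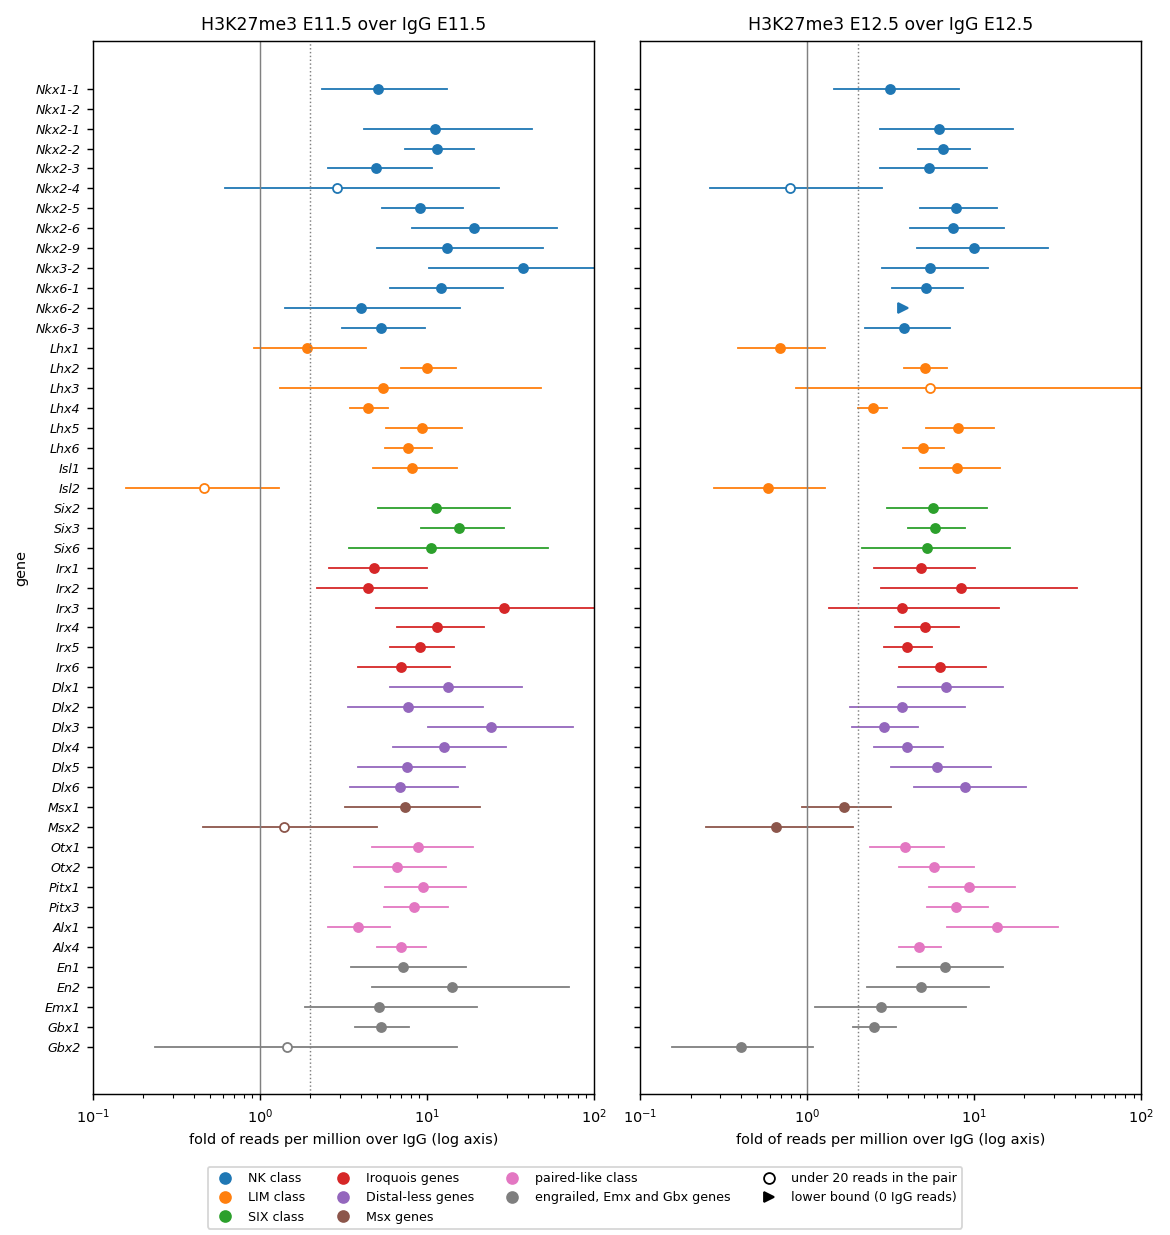
Fold of the level (RPM) in H3K27me3 over IgG of the same stage (log axis) for each of the 49 genes, coloured by class, at E11.5 (left) and E12.5 (right). Points are folds, lines their exact 95% counting intervals (clipped at the axis ends), open points have under 20 reads in the pair, the triangle is the lower bound for Nkx6-2, and the solid and dotted lines mark 1-fold and 2-fold; Gbx2, Isl2, Msx2, Lhx1 and Msx1 are the passing genes left of 2-fold at E12.5, and Nkx1-2 has no reads.

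The Nkx genes were the largest family. Of 13, 11 had enough reads, and each of these was called over IgG at both stages. Nkx2-9 (chromosome 12, 56611389 to 56613569 in GRCm38.p6, as are all coordinates here) had the most H3K27me3 reads per length of the members at E12.5. It had 20.9 RPM per kb there and 20.6 at E11.5, a measure that also depends on the strain differences a gene holds. In the IgG libraries Nkx2-9 had 1.55, 2.09 and 1.20 in order of stage, above the members' medians of 0.947, 1.38 and 0.737. Its level was 39.0 and 39.6 RPM in H3K27me3, against 2.95, 3.96 and 2.28 in IgG. Both marked libraries stood apart from all 3 controls, and they did not differ from each other beyond counting error (E12.5 over E11.5, 1.02-fold, 95% interval 0.789 to 1.31).

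Nkx2-5, the heart progenitor factor, was at 100.2 and 82.3 RPM in H3K27me3 and at 11, 10.6 and 7.36 in IgG, or 7.79-fold over IgG at E12.5 (4.74 to 13.8). Nkx2-6, a pharyngeal and cardiac gene, was at 70.9 and 54.2, against 3.68, 7.26 and 6.31. Nkx2-2 (chromosome 2, 147176485 to 147195434), needed for ventral interneurons and pancreatic beta cells, had the highest ratio of the family over IgG E13.5, at 170.2 and 149.8 RPM in H3K27me3, against 14.7, 23.1 and 9.99 (15-fold over IgG E13.5 at E12.5, 11.4 to 20). These 3 genes were high in both marked libraries and low in every control. Nkx2-1, which specifies lung, thyroid and ventral forebrain, was lower in RPM, at 33.1 and 24.3, against 2.95, 3.96 and 3.15. Its fold over IgG at E11.5 was 11.2 (4.22 to 42.3), between those of Nkx2-5 (9.06) and Nkx2-6 (19.2). At E12.5 its fold was 6.14 (2.74 to 17.1), below those of these 3 genes.

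At E11.5 the highest ratio of all members was that of Nkx3-2, a gene of the axial skeleton and spleen, from 131 reads in H3K27me3 and 2 in IgG (37.7-fold, 10.2 to 314.9). At E12.5 it was 5.43-fold over IgG (2.79 to 12.1).

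The 2 Nkx genes under 20 reads gave little to measure. Nkx2-4 had 10 and 13 reads in H3K27me3 and 2, 5 and 4 in IgG. Nkx1-2 had 0 reads in all 5 libraries, which allows up to 0.598 RPM at E12.5 (3 reads), and whether the gene holds any strain difference was not tested. Nkx6-2, the lowest of the family over IgG E13.5 by log2 ratio (1.80), had 28 and 37 reads against 4, 0 and 8. Its level at E12.5 was at least 3.72-fold higher than IgG of that stage, taken against a floor of 3 reads in that library.

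Among the LIM class, Lhx2, Lhx5, Lhx6 and Isl1 carried much mark and Lhx1 and Isl2 little. Isl1, a marker of motor neurons and cardiac progenitors, was at 83.6 and 78.5 RPM in H3K27me3 and at 10.3, 9.90 and 7.89 in IgG. Lhx5, a forebrain and interneuron gene, was at 116.7 and 105.2, against 12.52, 13.2 and 9.11 (7.97-fold at E12.5, 5.11 to 13.2), and had the highest ratio of the class over IgG E13.5. Lhx2, required for eye and cortex, was 10.1-fold over IgG at E11.5 (7 to 14.9) and 5.05-fold at E12.5 (3.80 to 6.84). Each of these genes lay above all 3 controls in both libraries.

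Lhx1, needed for head formation and for the kidney and genital tract, was at 14.0 RPM at E11.5 and 8.17 at E12.5, while IgG gave 7.37, 11.9 and 6.84. It overlapped with the controls at E12.5, where its fold was 0.688 (0.386 to 1.27). At E11.5 the fold was 1.90 (0.915 to 4.32). Isl2 had 8 and 23 reads in H3K27me3 and 10, 12 and 31 in IgG, and lay below its control at both stages within counting error (0.461-fold, 0.158 to 1.30, and 0.579-fold, 0.276 to 1.28). After scaling to an autosomal median of 0, the ratio of Lhx1 at E12.5 went from -0.49 to 0.05.

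All 6 Dlx genes, which pattern the jaw, the limb and the inhibitory neurons of the forebrain, were called at both stages. They lie as 3 pairs, with starts 15.3 kb apart for Dlx1 and Dlx2 on chromosome 2, 20.3 kb for Dlx3 and Dlx4 on chromosome 11 and 14.5 kb for Dlx6 and Dlx5 on chromosome 6. Over IgG E13.5 the log2 ratios at E12.5 were 2.84 for Dlx1 and 2.73 for Dlx2. Those of the second pair were 2.38 for Dlx3, the lowest of the 6, and 3.03 for Dlx4. In the third pair Dlx5 stood at 3.79, the highest of the 6, and its neighbour Dlx6 was 9.42-fold over that control (6.35 to 14.5). Dlx5 had 50.1 and 39.4 RPM in H3K27me3 and 6.63, 6.60 and 1.93 in IgG, so its place at the top rests on the 11 reads of IgG E13.5, and over IgG E12.5 it was 5.98-fold (3.18 to 12.7).

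Among the 3 other close pairs, Six2 and Six3 were nearer each other over IgG E13.5 at E12.5 than the genes of the 2 Nkx pairs. Six2, a kidney progenitor gene, and Six3, a forebrain and eye gene, start 49.1 kb apart on chromosome 17 and had log2 ratios of 3.33 and 3.19 over IgG E13.5 at E12.5. Nkx2-1 and Nkx2-9, 79.5 kb apart, had 2.61 and 3.63, and the intervals of their folds overlapped (4.67 to 13.4 and 9.94 to 33.2). At E11.5 over IgG E11.5, Nkx2-1 and Nkx2-9 had 3.11 and 3.34, and Six2 and Six3 had 3.24 and 3.83. Nkx2-2 and Nkx2-4, 93.1 kb apart, had 3.78 and 1.08, the latter from 13 and 4 reads.

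Six2, Six3 and Six6 were each called at both stages. Six2 was the highest of them over IgG E13.5 at E12.5, at 50.1 and 37.3 RPM in H3K27me3 and 4.42, 6.60 and 2.80 in IgG. Six6, a gene of the eye and pituitary, was the lowest, at 23.3 and 17.1, against 2.21, 3.30 and 3.86 (4.44-fold over IgG E13.5, 2.76 to 7.46). Even this gene stood above every control in both libraries.

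The 6 Irx genes, which lie in 2 clusters and pattern heart, neural plate and limb, were all called at both stages too. Irx6 was the highest over IgG E13.5 at E12.5 (log2 ratio 3.16) and Irx3 the lowest (1.88). Irx3 had 50 and 49 reads in H3K27me3 and 1, 4 and 11 in IgG. Its fold over IgG at E11.5, 28.8, has a counting interval from 4.94 to 1160.3, because that control held 1 read. Irx6 was at 61.5 and 53.2 RPM, against 8.84, 8.58 and 5.08.

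The paired-like genes Otx1, Otx2, Pitx1, Pitx3, Alx1 and Alx4 were all called at both stages. Pitx1, a hindlimb and pituitary gene, was at 104.0 and 79.9 RPM in H3K27me3 and at 11, 8.58 and 7.19 in IgG (9.31-fold at E12.5, 5.38 to 17.6). Pitx3, required for lens and midbrain dopamine neurons, was at 148.5 and 128.1, against 17.7, 16.5 and 13.7. Otx1, a forebrain gene, had the highest ratio of these 6 over IgG E13.5 at E12.5 (3.49). Otx2, the anterior head gene, which pluripotent epiblast cells also express, was at 58.1 and 64.5, against 8.84, 11.2 and 7.54, and was 1 of 4 members with a higher level at E12.5 than at E11.5 by log2 ratio (1.11-fold, 0.906 to 1.37).

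Alx1, a gene of the facial mesenchyme, ranked first of all members over IgG at E12.5 (13.7-fold, 6.88 to 32.0), and this rank came from its control. It was at 76.8 and 72.3 RPM in H3K27me3, and at 19.9, 5.28 and 21.4 in IgG at E11.5, E12.5 and E13.5. Over IgG of E11.5 the E11.5 library was 3.86-fold (2.57 to 6.02), and over IgG of E13.5 the E12.5 library was 3.38-fold (2.75 to 4.19). By that last measure Alx1 was the lowest of the paired-like genes.

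The engrailed gene En1, of the midbrain and limb, was at 42.4 and 39.8 RPM in H3K27me3 and at 5.89, 5.94 and 2.45 in IgG, and had the highest ratio of the En, Emx and Gbx genes over IgG E13.5 (3.56). Gbx2 was the lowest of these, with 5 and 12 reads in H3K27me3 and 2, 9 and 18 in IgG. Its log2 ratio at E12.5 was -1.03, past the 2-fold threshold in the lower direction, but the interval of its fold reached past 1 (0.403, 0.156 to 1.08), and over IgG E13.5 the log2 ratio was -0.29. Emx1, a cortex gene, had 36 and 46 reads against 4, 5 and 12, and was 2.78-fold over IgG at E12.5 (1.11 to 8.96).

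The 2 Msx genes, which act downstream of BMP signalling in limb and face and are known in PGC precursors, lay at the low end of the members at E12.5. Msx1 was at 32.7 RPM at E11.5 and 15.3 at E12.5, with 4.42, 9.24 and 4.03 in IgG. It was above all controls at both stages, and its fold over IgG went from 7.39 at E11.5 (3.25 to 20.8) to 1.66 at E12.5 (0.932 to 3.18), where it was not called. Over IgG E13.5 it was called at E12.5 (3.80-fold, 2.36 to 6.35). Msx2 had 12 and 15 reads in H3K27me3 and 5, 7 and 27 in IgG, and was at 0.647-fold over IgG at E12.5 (0.248 to 1.88).

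Set beside other gene groups, the members resembled the Hox genes and other patterning homeobox genes in level. Over IgG E13.5 at E12.5, all 32 Hox genes with enough reads were called (median 3.10), as were 54 of 60 other homeobox patterning genes (median 2.39) and 13 of 16 somatic gonad genes (median 2.13). Homeobox genes that are broadly expressed, such as the Pbx and Meis genes, had 2 of 23 called (median -0.33). Of the 11 blood and endothelial genes 2 were called (median 0.02). Of the 18 germ cell genes 2 were called (median -0.62), and of the 25 housekeeping genes 0 (median -1.14). Of all autosomal genes 15.9% were called (median -0.41). Over IgG E12.5 the median was 2.27 for the members, 2.83 for Hox genes and -1.16 for housekeeping genes. These medians describe the lists and were not tested against each other. No RNA was measured, so markers could be read only as levels of the mark and do not check the sorted cells' identity.

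**Figure D2:**
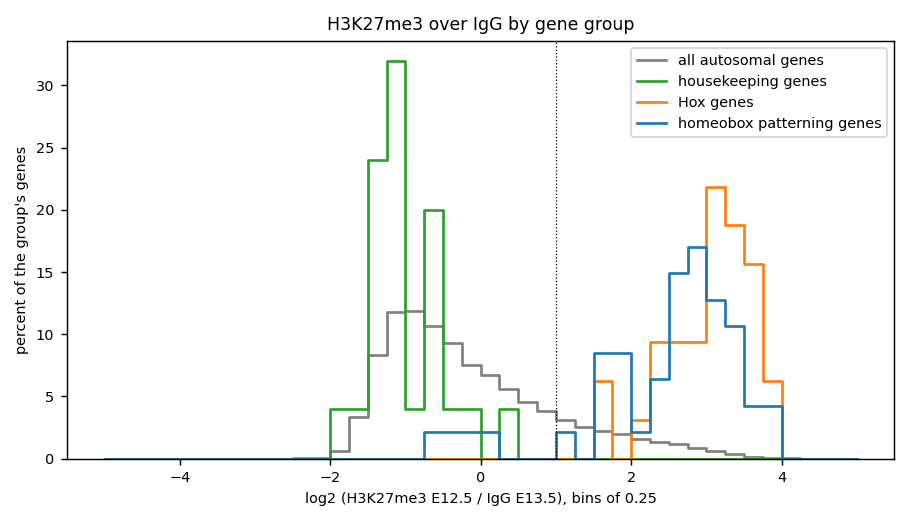
Distribution of the log2 ratio of H3K27me3 E12.5 over IgG E13.5 in bins of 0.25, as percent of the genes of each group with at least 20 reads in the pair. Members (blue, median 2.73) lie with Hox genes (orange, 3.10) mostly to the right of the 2-fold line (dotted), with 43 of 47 members past it, and housekeeping genes (green, -1.14) lie to its left; all autosomal genes are in grey.

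From E11.5 to E12.5 most members took a smaller part of the H3K27me3 reads. Of 47 with at least 20 reads in both libraries together, 43 had a lower level at E12.5 and 4 a higher one, with a median log2 ratio of -0.43 (quartiles -0.62 and -0.21), where the autosomal median was 0.01. For 31 of the 47 the interval of the fold lay below 1, against 10.4% of autosomal genes, and for 0 it lay above 1. By the log2 ratio with its pseudocount of 1 RPM, Dlx3, Irx3 and Msx1 were lower by 2-fold or more, a threshold that 0.787% of autosomal genes passed. Lhx3 had the lowest fold without the pseudocount (0.445), but its log2 ratio was -0.98, just short of the threshold, and it was called with a pseudocount of 0.5.

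Dlx3, a gene of the skin, teeth and placenta, had 210 reads at E11.5 and 218 in the deeper library at E12.5, or 89.1 and 43.4 RPM (0.487-fold, 0.401 to 0.592). Irx3 was at 21.2 and 9.76 (0.460-fold, 0.304 to 0.696), and Msx1 at 0.469-fold (0.338 to 0.652). All 3 intervals lay below 1. The 4 members with a higher level at E12.5 were Isl2 (1.35-fold, 0.583 to 3.49), Otx2, Dlx6 (1.02-fold, 0.806 to 1.29) and Nkx2-9, and none of them differed between both libraries beyond counting error. Lhx3, a pituitary and motor neuron gene, was at 8.06 and 3.59 from 19 and 18 reads (0.445-fold, 0.220 to 0.895). Six3 was at 160.4 and 111.8 (0.697-fold, 0.610 to 0.796), Lhx6, an interneuron gene, at 237.7 and 182.1 (0.766-fold, 0.689 to 0.853), and Gbx1, a spinal cord gene, at 132.4 and 89.2 (0.674-fold, 0.582 to 0.781).

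The same comparison gave a median of -0.13 over 32 Hox genes, with the interval below 1 for 2 of them, and of -0.25 over 60 other homeobox patterning genes, with 27 below 1. Other autosomal genes at least 2-fold over IgG E13.5 at both stages (2416 genes) had a median of -0.18, with 73.8% lower at E12.5, and those under 2-fold (13243 genes) a median of 0.05, with 43.1% lower. Both of these groups were chosen by H3K27me3 counts that also enter their stage change, while the members were chosen by name. Their medians are therefore not like for like with the members' median, which lay further down. Fewer marked cells and less mark per cell cannot be told apart in these bulk libraries, nor can stage and library with 1 library each.

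**Figure D3:**
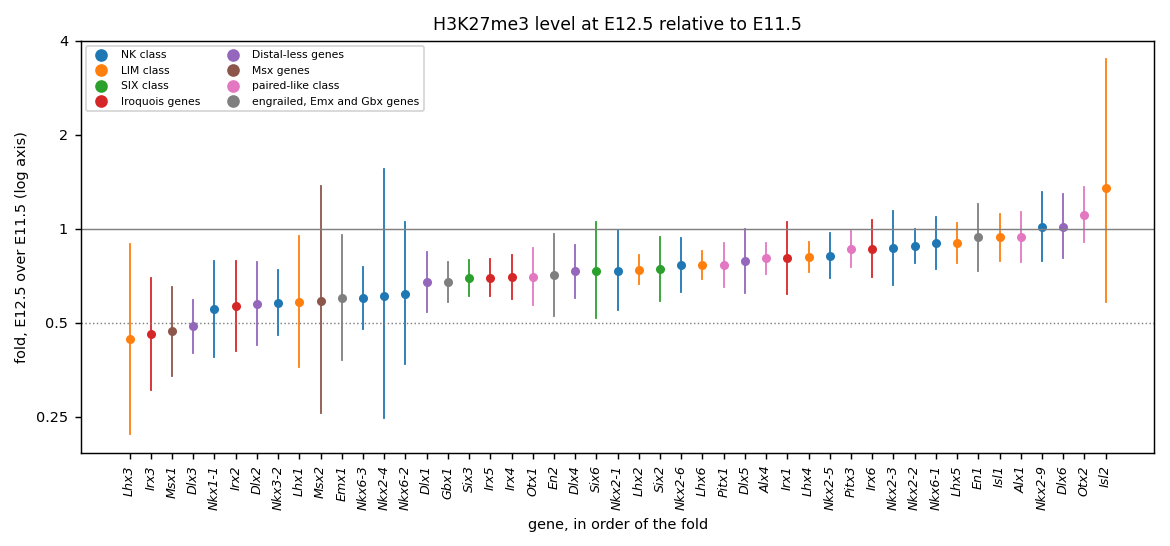
Fold of the H3K27me3 level at E12.5 over E11.5 (log axis) for the 47 members with at least 20 reads in both libraries together, in order of the fold and coloured by class. Lines are exact 95% counting intervals, and the dotted line marks 0.5; 43 points lie below 1 by log2 ratio, with Lhx3, Irx3, Msx1 and Dlx3 at the left end.

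The IgG libraries moved at these genes as well. IgG E12.5 was higher than IgG E11.5 at the median member by 0.40 on the log2 scale (26 members with enough reads), where the autosomal median was 0.07. IgG E13.5 was lower than IgG E12.5, with a median of -0.55 over 40 members and -0.12 over autosomal genes. Per kb, 30 of the 49 members lay above the autosomal median density in IgG E12.5, 18 in IgG E11.5 and 9 in IgG E13.5, and in H3K27me3 it was 44 at E12.5 and 46 at E11.5. The smaller folds over IgG at E12.5 than at E11.5 therefore combine a lower numerator with a higher control. Over the 1 control of IgG E13.5 the median still went from 3.25 to 2.73.

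By point estimate, the H3K27me3 reads of most members were split close to evenly between both alleles. The second-allele share is the percent of a gene's reads on the second allele, given at 10 or more reads, and which strain that allele is was not stated. At E11.5 the median over 46 members was 50.6% (quartiles 46.2 and 53.4), and at E12.5 it was 50.5% over 48 (47.6 and 53.9), against autosomal medians of 50.8% and 50%. The shares of 27 and 30 members lay within 5 points of 50%, a count that also depends on read number. In IgG E13.5, with fewer reads at the members, it was 16 of 45. The same count over all autosomal genes was not computed. Nkx2-2 was at 50.6% and 51.1%, Six2 at 50% and 50.3%, and Lhx2 at 51.9% and 52.5%.

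An exact binomial test against each library's pooled autosomal share, with Benjamini-Hochberg adjustment over all autosomal genes, called 5 members at E11.5, of which 4 leaned to the second allele (6.69% of autosomal genes did) and 1 to the first (4.98%). This test takes the reads of 1 library as independent. At E12.5 the calls were 5 and 1, against 9.48% and 7.98%. The number of members called was thus close to or below the background at both stages. That background was not matched in read number, on which the test's power depends. The median autosomal gene held 32 reads at E11.5 and 67 at E12.5. Lhx4, Gbx1, Six3 and En2 were called at both stages. Nkx1-1 (67.1%, adjusted p = 0.0404, exact binomial test) and Nkx2-5 (44.3%, adjusted p = 0.0454) were called at E12.5, and Nkx6-1 (39.9%, adjusted p = 0.0252) at E11.5, and their shares at the other stage were 53.2%, 48.3% and 45.0%.

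For Lhx4, Gbx1 and Six3 the control had the same tilt as the mark. For Lhx4, a pituitary and motor neuron gene, the second allele held 72.4% of 533 reads at E11.5 and 68.7% of 922 at E12.5, and in IgG 72.5% of 69, 75.2% of 113 and 73.0% of 318. Gbx1 had 68.6% of 312 and 70.5% of 448, and in IgG 79.4% of 34, 66.7% of 54 and 72.9% of 140. Six3 had 72.5% of 378 and 69.5% of 561, and in IgG 64.3% of 14, 72.4% of 29 and 70.8% of 65. All 5 libraries of these 3 genes lay on the second-allele side. The same binomial test called all 3 in IgG E13.5, together with Alx4 (64.9% of 134 reads, against 51.4% in both H3K27me3 libraries), where 5.84% of autosomal genes were called to the second side and 2.03% (and 0 members) to the first. Six2, the neighbour of Six3, was at 50.3% at E12.5.

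En2, of the midbrain and cerebellum, had 79.7% of 74 reads on the second allele at E11.5 (exact 95% interval 68.8 to 88.2) and 75% of 112 at E12.5 (65.9 to 82.7). Its controls held 3, 7 and 15 reads, and IgG E13.5 had 60% (32.3 to 83.7), so a difference from IgG was not detectable at this depth. En1, its paralogue, was at 47% and 44.5%.

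Fisher's exact test (two-sided, Benjamini-Hochberg adjustment over autosomal genes) called no member's share as different between libraries. Between H3K27me3 and IgG at E12.5 it called 0 of 28 members, against 2.35% of autosomal genes, with an unadjusted p under 0.05 for 2, Lhx5 and Irx5. Over IgG E13.5 it called 0 of 45, against 6.12%, and 3 had an unadjusted p under 0.05: Lhx6, Irx3 and Alx4, of which Alx4 had the smallest adjusted p (0.0579, Fisher's exact test). Between E11.5 and E12.5 it called 0 of 46, against 0.53%, and 1, Irx4 (44.2% and 52.8%), had an unadjusted p under 0.05. The autosomal percentages here are of adjusted calls. The share of autosomal genes with an unadjusted p under 0.05 was not computed, so the unadjusted counts have no background and single out no gene. These tests compare the libraries, not the conditions, and a p above the threshold does not show equal shares.

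**Figure D4:**
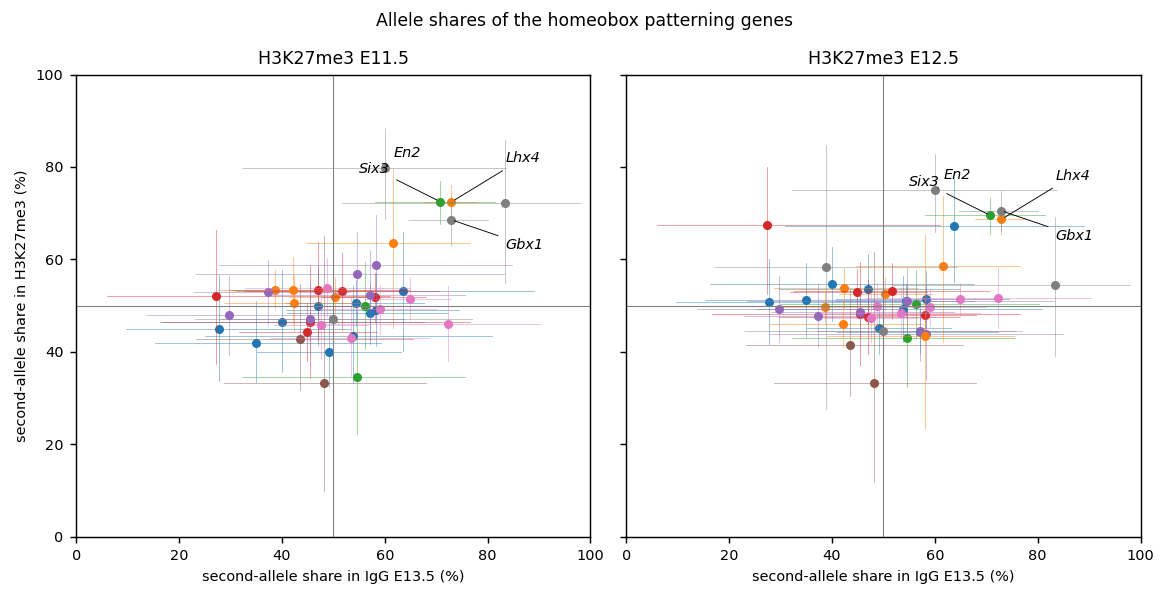
Second-allele share (percent) in H3K27me3 E11.5 (left) and E12.5 (right) against that in IgG E13.5, for members with at least 10 reads in both, coloured by class as in the plots of folds. Lines are exact 95% intervals; most points lie near 50% on the vertical axis, while Lhx4, Gbx1 and Six3 lie near 70% on both axes and En2 high in H3K27me3.

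The members' promoters were CpG-rich, and CpG number had a weak negative correlation with the ratio over IgG among them. Of the 49 members 33 had a promoter entry, and the median number of CpG in its 300 bases was 23 (quartiles 16 and 31), against 15 over 15600 other autosomal genes (4 and 25). At least 20 CpG were found in 22 of 33 (66.7%) and in 38.6% of the others. Otx2 had the fewest, 6, and Nkx6-1 the most, 40. Among the 31 members with enough reads, the Spearman correlation of CpG number with the log2 ratio of E12.5 over IgG E13.5 was -0.20, a description over genes that share both libraries. CpG were counted in 300 bases and reads per gene, so the mark at the promoter alone was not measured.

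Among other autosomal genes the called share was not highest in the CpG-rich promoters. It was 17.1% with 0 to 4 CpG, 25.7% with 5 to 9, 13.7% with 10 to 19 and 9.87% with 20 or more. Members were called in 16 of 20 cases in that last group and in 9 of 9 with 10 to 19, and in 2 of 2 with 5 to 9. The letters TAATTA, a core that many homeodomains bind and that reads the same on both strands, were in 2 of the 33 promoters, those of Otx2 and Msx2 (6.06%), and in 4.51% of the other promoters. Gene length in the files had a Spearman correlation of -0.001 with the log2 ratio over 47 members, again a description.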

How the data were processed

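Libraries were made by CUT&RUN from sorted PGCs, per the labels' protocols. Each deposited file holds, per gene, the authors' whole-number read counts on 2 alleles, not normalised, and the fraction of the second allele. That deposited fraction equals the second count over the sum of both (largest difference 5.55e-16). A further deposited column, taken from its values as gene length in bases, served for densities. Per the submitters' processing notes the tools included Trim Galore 0.6.6, Bowtie2 2.4.2, SAMtools 1.11, GATK, MACS2 2.2.7.1 and featureCounts, with build mm10. How duplicates were handled, and how reads were assigned to alleles, is not given in the sources used here. If duplicates remain, intervals and tests are too narrow.

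Levels, folds, exact conditional binomial intervals (95%), binomial tests and Fisher's exact tests were computed with Python 3.11.15, SciPy 1.17.1 and pandas 2.3.3 over all 20368 autosomal genes, and adjusted by Benjamini-Hochberg at 0.05. A count of 0 was bounded by 3 reads. Alternatives changed the pseudocount, the minimum of reads, the control, the scaling and the share test, and 1 filter was added after seeing the data. The procedures were tested on simulated data, drawn with the binomial and Poisson spread that the tests and intervals assume. That check does not cover a wider spread in real libraries. Members matched RefSeq by symbol (49 of 49). Members and lists were chosen with earlier results of these data known. Described in full are the 10 highest and 6 lowest members over IgG E12.5, the ends of each class, pairs within 100 kb and members called where 6 or fewer were. Others served as examples chosen after their values were seen.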

Additional observations from a re-analysis of the deposited data

Results flagged for a closer look

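Lhx1 was the only member with at least 20 reads in both pairs whose ratio to IgG of the same stage pointed in opposite directions at E11.5 and E12.5. Its log2 ratio was 0.84 at E11.5, from 33 reads in H3K27me3 and 10 in IgG, and -0.49 at E12.5, from 41 and 18. The difference was not tested, and both folds had intervals that include 1. With the autosomal median set to 0, the values were 1.33 and 0.05 and no longer differed in sign.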

How the results depend on the processing

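No replicate could be left out and no paired analysis was possible because each group had 1 library. The members' median log2 ratio over IgG, 2.91 at E11.5 and 2.27 at E12.5, moved with the pseudocount and the control. It was 2.30 and 1.79 with a pseudocount of 5, 3.25 and 2.73 with IgG E13.5 as the control, and 3.40 and 2.81 with the autosomal median set to 0. At E12.5 it was 2.62 with the 3 IgG libraries summed. The number called over IgG stayed between 40 and 44 at E11.5 and between 39 and 43 at E12.5 under the alternatives run. The 3 members 2-fold lower at E12.5 than at E11.5 became 0 with a pseudocount of 5, which shrinks small levels by construction. With a threshold of 20 points from 50% in place of the binomial test, 2 of 48 members passed at E12.5 instead of 6. Of autosomal genes 8.22% passed it there. At E11.5 it was 5 of 46 members, against 9.72% of autosomal genes. Msx1 was called over IgG at E12.5 with IgG E13.5 (1.70), with the summed controls (1.44) and with the autosomal median set to 0 (1.22). Gbx2 was not called lower under 5 of the alternatives, and Irx3 (0.95) and Emx1 (0.77) were not called at E12.5 with a pseudocount of 5. The filter on IgG E13.5 was added after seeing the data. Depth limits low levels: 3 reads are 2.21, 1.98 and 0.526 RPM in the IgG libraries of E11.5, E12.5 and E13.5.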
